A study of Mus musculus with 4 samples.

Results

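Accessible chromatin at the genes of the proteasome was compared between double-positive (DP) thymocytes lacking Chaf1b and their controls. The genes were all protein-coding genes of the RefSeq table for GRCm38 whose symbol begins with Psma, Psmb, Psmc, Psmd, Psme, Psmf or Psmg followed by a number, which gave 51 of 21887 protein-coding genes. Of these, 19 encode the core particle or its tissue forms and 17 the regulatory particle, and the other 15 are assembly chaperones, activators, an inhibitor and, by their symbols alone, Psmc3ip and Psme3ip1, which encode no subunit. CD4+CD8+ cells sorted from the thymus of C57BL/6 mice were assayed by ATAC-seq, which reads open chromatin from the places where a transposase can insert. The knockout (KO) mice carried loxP-flanked Chaf1b alleles with Cd4-cre, and the wild-type (WT) mice carried the same alleles without Cre, so the floxed alleles were common to both groups. Cd4-cre becomes active as thymocytes reach the DP stage, and the ages of the mice are not stated in the labels. Each group had 2 replicates, which the authors had joined into 1 list of regions, so no difference below has a replicate check and no test between the groups could be made.

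The proteasome degrades proteins marked with ubiquitin. Its core particle is a barrel of outer alpha rings, which gate the entrance, and inner beta rings, whose subunits Psmb5, Psmb6 and Psmb7 cut peptides. The regulatory particle recognises, unfolds and feeds in substrates with a ring of ATPases (Psmc genes) and with non-ATPase subunits (Psmd genes). In immune cells Psmb8, Psmb9 and Psmb10 can take the place of the standard catalytic subunits to form the immunoproteasome, which shapes the peptides shown on MHC class I. In the thymus Psmb11 forms the thymoproteasome of cortical epithelial cells, which is required for normal positive selection of CD8 T cells and is not a feature of thymocytes.

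The KO list held 7645 regions and the WT list 15215. The genome background that the peak caller used, taken here as each list's depth, was 1.03 reads for KO against 1.37 reads for WT (ratio 0.752). Chaf1b itself had a region at a gene end in both lists (fold 5.74 and 13 reads in KO, fold 5.60 and 14 reads in WT), which does not check the deletion, since a promoter can stay open when an exon is removed. Of the 14 marker genes of DP thymocytes, 1 (Cd8b1) had a KO region and 9 had a WT region, Cd4 and Cd8a being without any in either list. The shares over all protein-coding genes were 21.1% for KO and 34.6% for WT. A KO region was thus present at 1 of the 9 markers with a WT region (11.1%, exact 95% interval 0.281 to 48.2). That interval lies below the 59.4% over all protein-coding genes with a WT region, a share not matched for WT fold. In these 9 markers the WT fold ran from 4.64 (Ptcra) to 8.10 (Cd3g). Over all genes the share was 25.5% below a WT fold of 6, 59.8% from 6 to under 9 and 94.1% at 9 and over. Rag1 (6.57), Bcl11b (6.69), Rag2 (7.19), Themis (7.45) and Cd3g fell in the middle class, and none of them had a KO region. Below 6 lay Ptcra, Cd3d (4.78), Satb1 (5.56) and Cd8b1 (5.43), with a KO region at Cd8b1 alone. Of 22 markers of epithelium and stroma, myeloid, B and erythroid cells, 0 had a KO region and 2 (Ly75 and Ebf1) had a WT region. Whether cell composition has a part in the results was not tested, and in such bulk lists fewer cells with an open site and less opening per cell cannot be told apart.

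A gene counted as having a region when an interval of the list lay within 1000 bp of either annotated end of the gene. A KO region was called at 14 of the 51 proteasome genes (27.5%, exact Clopper-Pearson 95% interval 15.9 to 41.7) and a WT region at 29 (56.9%, 42.2 to 70.7). Over all protein-coding genes these shares were 21.1% in KO and 34.6% in WT. All 14 genes with a KO region also had a WT region, so 0 of 14 lacked one, against 2.77% over all protein-coding genes with a KO region. Of the 29 genes with a WT region, 14 had a KO region (48.3%, 29.4 to 67.5), where the share over all protein-coding genes with a WT region was 59.4%, inside that interval. The remaining 15 were called in WT only and 22 in neither list. Of the genes without a WT region, 0 of these 22 had a KO region, against 0.894% over all protein-coding genes without one. Leaving out Psmc3ip and Psme3ip1, 13 of 28 genes with a WT region had a KO region (46.4%, 27.5 to 66.1). That interval also holds 59.4%.

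**Figure D1:**
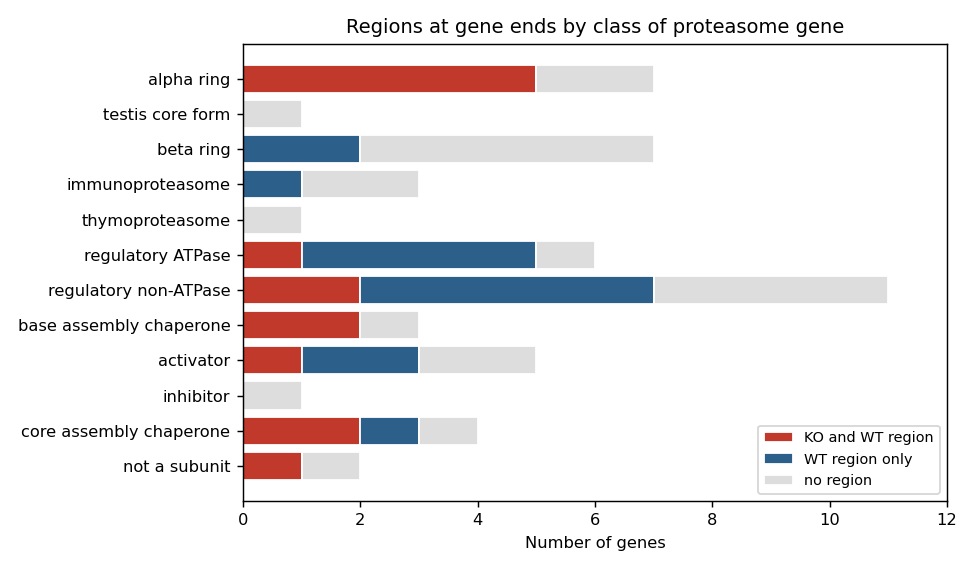
Number of proteasome genes (x axis) with a region at a gene end in both lists, in the WT list only or in neither, by class (rows). The alpha ring has 5 genes in both lists and 0 in WT only, while the beta ring has 0 in both and 2 in WT only.

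In the core particle 5 of 19 genes had a KO region and 8 a WT region, so 5 of 8 WT regions had a KO counterpart (62.5%, 24.5 to 91.5). In the regulatory particle 3 of 17 genes had a KO region and 12 a WT region, so 3 of 12 had a counterpart (25.0%, 5.49 to 57.2). The 59.4% over all protein-coding genes lay inside the interval of the core and above that of the regulatory particle. That share is not matched for WT fold. Under a WT fold of 6, 0 of 4 regulatory genes had a KO region. It was 3 of 7 from 6 to under 9 and 0 of 1 at 9 and over. The shares over all genes in these classes were 25.5%, 59.8% and 94.1%, each inside the regulatory interval of its class. With the WT list limited to the length of the KO list, the regulatory share was 3 of 7 (42.9%, 9.90 to 81.6), an interval that holds the 77.8% of all genes under that limit. The intervals of the 2 particles overlap, and with 1 list per group the difference between them could not be tested. All 5 genes of the core particle with a KO region belonged to the alpha ring, and of the 11 Psmb genes 0 had a KO region (0 to 28.5%) and 3 a WT region (6.02 to 61.0%). Both intervals hold the share over all protein-coding genes, 21.1% for KO and 34.6% for WT.

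Of the alpha ring genes, which encode structural subunits of the outer rings, Psma1, Psma2, Psma4, Psma5 and Psma7 were called in both lists. Psma5 had the highest WT value of all proteasome genes. Its fold enrichment, the summit pileup (the reads covering the highest point) over the local background with 1 added to each, was 7.87 in KO and 13.2 in WT, with 15 reads at the KO summit (Poisson 95% interval 8.40 to 24.7) and 42 at the WT summit (30.3 to 56.8). The KO region lay at chr3:108256879-108257284 and the WT region at chr3:108256839-108257286. Scaled for the depth of the lists, the ratio of KO to WT reads was 0.475, the lowest among the proteasome genes. KO reads made up 26.3% of the reads at both summits (15.5 to 39.7), an interval below the 42.9% that the depths alone would give but one that holds the 38.5% found over all gene-end regions in both lists. The promoter of Psma5 is shown because its region held this lowest ratio. It is 250 bases before to 50 after the start site on the plus strand (chr3:108256676-108256975, GRCm38.p6, from RefSeq), and the capitals mark an ETS core on the opposite strand.

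Psma5: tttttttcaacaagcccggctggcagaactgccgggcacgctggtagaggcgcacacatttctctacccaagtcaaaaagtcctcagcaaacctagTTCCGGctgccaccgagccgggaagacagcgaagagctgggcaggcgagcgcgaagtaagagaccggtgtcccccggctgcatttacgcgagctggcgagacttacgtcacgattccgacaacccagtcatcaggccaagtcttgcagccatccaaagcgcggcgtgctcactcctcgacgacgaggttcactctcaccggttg

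The summits of the Psma5 region lay 182 bp downstream of the start site in KO and 171 bp in WT, on the far side of the start from the capitals. At Psma4 the fold was 5.90 in KO and 8.02 in WT (11 and 20 reads), and at Psma2 it was 6.76 in KO and 7.99 in WT (14 and 22 reads). Psma1 and Psma7 ran the other way. Psma1 had a fold of 7.14 in KO and 6.82 in WT, with 16 and 17 reads and the highest depth-scaled ratio of the proteasome genes, 1.25. Psma7 had a fold of 6.15 in KO and 4.80 in WT, with 15 and 18 reads. Its WT region, 1175 bp wide, was the only proteasome region of 700 bp or more, while its KO region spanned 238 bp. The share of such wide regions at gene ends was 1.90% in KO and 6.85% in WT over all genes.

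The other 2 alpha genes, Psma3 and Psma6, had no region at the annotated gene ends but did at start sites listed inside the gene. At Psma3 a region lay at chr12:70974502-70974910 in KO (fold 6.70, 14 reads) and at chr12:70974494-70974868 in WT (fold 9.80, 28 reads), with summits 0.053 kb and 0.062 kb from the start site. At the inner start site of Psma6 a WT region lay at chr12:55398592-55398928 (fold 9.02, 21 reads) and no KO region was called. A further Psma6 region lay 4.00 kb from the nearest listed start site in KO (fold 6.77, 20 reads) and 4.01 kb in WT (fold 6.22, 23 reads). Another WT region of Psma6, at chr12:55389323-55389637, had a fold of 3.70 and 13 reads and no KO counterpart. Counted at listed start sites, 6 of 7 alpha ring genes had a KO region and 7 of 7 a WT region. Over all 43 proteasome genes with a listed start site, 14 had a KO region and 27 a WT region there, where the shares over all protein-coding genes were 22.7% in KO and 36.8% in WT. The testis form of the ring, Psma8, was without a gene-end region in both lists.

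At gene ends the beta ring showed 0 KO regions. Only 4 of its 7 genes had a listed start site, and of these 0 had a KO region and 1 a WT region there. Psmb1 and Psmb3, which are structural subunits, had a WT region with a fold of 5.07 and 5.00 and 13 reads each. Psmb2 and Psmb4, also structural, and the catalytic genes Psmb5 (chymotrypsin-like), Psmb6 (caspase-like) and Psmb7 (trypsin-like) had none at a gene end in either list. The region nearest to Psmb5 was 10.5 kb away in both lists, that nearest to Psmb6 12.1 kb away in both, and that nearest to Psmb4 66.9 kb away in both. A KO region without WT counterpart lay inside Psmb7, at chr2:38594915-38595114, with a fold of 4.39 and 9 reads, and the WT region nearest to Psmb7 was 180 kb away. A missing region says that the site did not pass the authors' threshold at this depth, not that the promoter was closed.

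Among the immunoproteasome genes 1 of 3 had a WT region and 0 a KO region. Psmb9, which replaces Psmb6, stands head to head with Tap1, a subunit of the peptide transporter for MHC class I. Around the start sites of the pair the WT list had a region at chr17:34187135-34187453 (fold 5.52, 16 reads, Poisson interval 9.15 to 26.0) and another at chr17:34187574-34187816 (fold 4.58, 13 reads). The remaining WT region, at the other end of Tap1 (chr17:34196480-34196787, fold 5.71, 19 reads), lay 1.41 kb from Psmb8, which replaces Psmb5. Over the 34.3 kb from Psmb9 to Tap2 with 10 kb on each side, 0 KO regions were called and 3 WT regions, and the KO region nearest to Psmb9 was 46.4 kb away. Psmb10, which replaces Psmb7, had its nearest region 27.7 kb away in KO and 27.3 kb in WT. Psmb11, the thymoproteasome gene, had none within 21.7 kb in KO and 11.7 kb in WT, and over Psmb5 and its neighbour Psmb11 with 10 kb on each side both lists were empty.

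The promoters of the beta5 family, in which Psmb5, Psmb8 and Psmb11 stand in for each other, are shown beside that of Psmb9 because only Psmb9 had a region there. All are from RefSeq, GRCm38.p6, with the same extent about the start as above, at chr17:34187281-34187580 (minus strand), chr17:34197945-34198244 (plus), chr14:54617946-54618245 (minus) and chr14:54625060-54625359 (plus). Capitals mark a GC box and a CCAAT box in Psmb9, a gamma-activated site in Psmb8, an antioxidant response element core in Psmb5 and a CCAAT box in Psmb11.

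Psmb9: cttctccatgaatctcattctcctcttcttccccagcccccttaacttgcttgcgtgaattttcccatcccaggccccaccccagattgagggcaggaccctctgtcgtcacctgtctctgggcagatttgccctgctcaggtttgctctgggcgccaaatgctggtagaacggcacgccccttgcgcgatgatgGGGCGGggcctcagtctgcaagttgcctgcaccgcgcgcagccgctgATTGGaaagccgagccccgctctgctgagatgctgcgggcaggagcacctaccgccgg

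Psmb8: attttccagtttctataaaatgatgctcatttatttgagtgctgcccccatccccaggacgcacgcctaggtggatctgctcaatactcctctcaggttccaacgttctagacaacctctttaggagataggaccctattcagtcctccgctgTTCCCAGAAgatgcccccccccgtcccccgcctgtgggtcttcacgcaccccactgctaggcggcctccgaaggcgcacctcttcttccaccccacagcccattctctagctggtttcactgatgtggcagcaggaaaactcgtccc

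Psmb5: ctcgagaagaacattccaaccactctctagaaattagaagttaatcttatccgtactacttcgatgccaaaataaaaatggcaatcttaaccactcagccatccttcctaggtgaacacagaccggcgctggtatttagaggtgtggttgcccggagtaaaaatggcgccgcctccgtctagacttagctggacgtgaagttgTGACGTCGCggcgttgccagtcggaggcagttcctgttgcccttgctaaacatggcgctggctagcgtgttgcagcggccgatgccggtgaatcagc

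Psmb11: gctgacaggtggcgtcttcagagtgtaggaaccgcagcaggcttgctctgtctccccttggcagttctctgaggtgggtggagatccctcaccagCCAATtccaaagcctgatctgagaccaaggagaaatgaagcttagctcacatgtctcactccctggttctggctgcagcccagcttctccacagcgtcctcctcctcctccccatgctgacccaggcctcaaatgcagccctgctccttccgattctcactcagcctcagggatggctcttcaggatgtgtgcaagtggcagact

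The dinucleotide CG occurred 17 times in the Psmb9 promoter, 11 times in Psmb8, 20 times in Psmb5 and 4 times in Psmb11. Psmb5 thus had the most CG dinucleotides of these promoters and no region.

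Regulatory ATPases had WT regions at 5 of 6 genes and a KO region at 1. Psmc6 was the gene in both lists, with a fold of 7.66 in KO and 8.03 in WT and 16 and 30 reads, a depth-scaled ratio of 0.709. Psmc3 had the highest WT fold of all proteasome genes without a KO region, 9.69 at chr2:91053866-91054142 with 22 reads (13.8 to 33.3), and the nearest KO region was 10.7 kb away. Psmc4 had a WT fold of 7.55 with 20 reads and Psmc2 of 6.25 with 15 reads. Psmc1 had a WT fold of 3.82 with 9 reads, as few as any proteasome region, and Psmc5 had none. The promoters of Psmc6 (chr14:45329574-45329873, plus strand) and Psmc4 (chr7:28050043-28050342, minus strand), from the same source, are shown as a gene called in both lists and one called in WT only. Capitals mark GC boxes in both, and in Psmc6 also an antioxidant response element core and an ETS core.

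Psmc6: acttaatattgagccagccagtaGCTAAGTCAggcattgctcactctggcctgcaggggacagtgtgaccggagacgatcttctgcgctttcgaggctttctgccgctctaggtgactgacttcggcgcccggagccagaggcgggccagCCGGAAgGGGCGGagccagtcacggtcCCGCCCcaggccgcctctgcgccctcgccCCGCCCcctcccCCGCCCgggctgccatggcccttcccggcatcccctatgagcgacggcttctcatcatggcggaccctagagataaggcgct

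Psmc4: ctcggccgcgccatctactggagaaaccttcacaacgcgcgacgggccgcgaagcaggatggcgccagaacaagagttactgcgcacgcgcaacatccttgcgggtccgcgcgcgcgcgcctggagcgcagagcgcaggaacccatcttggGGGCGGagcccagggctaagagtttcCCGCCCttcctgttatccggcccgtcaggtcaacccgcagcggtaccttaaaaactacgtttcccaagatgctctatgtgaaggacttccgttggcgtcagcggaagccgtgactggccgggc

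Regulatory non-ATPase genes had WT regions at 7 of 11 genes and KO regions at 2. Psmd4, a ubiquitin receptor, had a fold of 6.61 in KO and 8.90 in WT, with 15 and 28 reads. Psmd11, a lid subunit, had a fold of 4.63 in KO and 7.91 in WT, with 9 and 21 reads and a depth-scaled ratio of 0.570, the second lowest. Called in WT only were Psmd6 (fold 7.59, 17 reads) and Psmd8 (7.04, 19 reads) of the lid, Psmd7 (5.33, 12 reads), the partner of the deubiquitinase Psmd14 (5.06, 11 reads), and Psmd2 (4.22, 9 reads), a scaffold of the base. Psmd1, the other large scaffold of the base, Psmd3, Psmd12 and Psmd13 had none at a gene end. A WT region inside Psmd3 (fold 5.48, 12 reads) and one 4.93 kb from Psmd1 (fold 8.61) had no such neighbour in KO, where the nearest regions were 95.1 kb and 15.2 kb away.

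Of the assembly chaperones, 2 of 3 for the base and 2 of 4 for the core were called in both lists. Psmd10 (gankyrin), which helps to build the base, had a fold of 6.89 in KO and 10.4 in WT, with 13 and 25 reads. Psmd5, another chaperone of the base, had a fold of 5.24 in KO and 7.36 in WT, with 10 and 18 reads, and Psmd9 had none at a gene end. Of the chaperones of the core, Psmg4 had a fold of 6.86 in KO and 8.58 in WT (13 and 22 reads). Psmg2 had a fold of 5.56 in KO and 6.52 in WT, with 13 and 17 reads. Psmg1 had a WT region only at its gene end (5.81, 14 reads), but inside the gene a KO region without WT counterpart lay at chr16:95984917-95985130 (fold 6.41, 14 reads). Psmg3 had none.

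Activators, which open the core in place of the regulatory particle, had WT regions at 3 of 5 genes and a KO region at 1. Psme4, which encodes PA200, had a fold of 5.90 in KO and 5.16 in WT, with 11 and 12 reads and a depth-scaled ratio of 1.22. The interferon-inducible pair Psme1 and Psme2 (PA28 alpha and beta) had WT regions only, with a fold of 6.38 and 18 reads at Psme1 and 3.77 and 11 reads at Psme2, the lowest fold among gene-end regions of the proteasome genes. The summit of the Psme2 region lay at position -414 from its start site, and the region was also at an end of Rnf31. From Psme1 to Rnf31 (25.2 kb) with 10 kb on each side, 0 KO and 3 WT regions were called. Psme3 (PA28 gamma), the Psme2 copy Psme2b and the inhibitor gene Psmf1 (PI31) had none in either list. Reads of near-identical copies such as Psme2 and Psme2b may not map uniquely, which was not tested. Psme3ip1, not a subunit, had a fold of 10.3 in KO and 12.04 in WT (25 and 38 reads), and Psmc3ip, a meiotic recombination gene, had none.

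**Figure D2:**
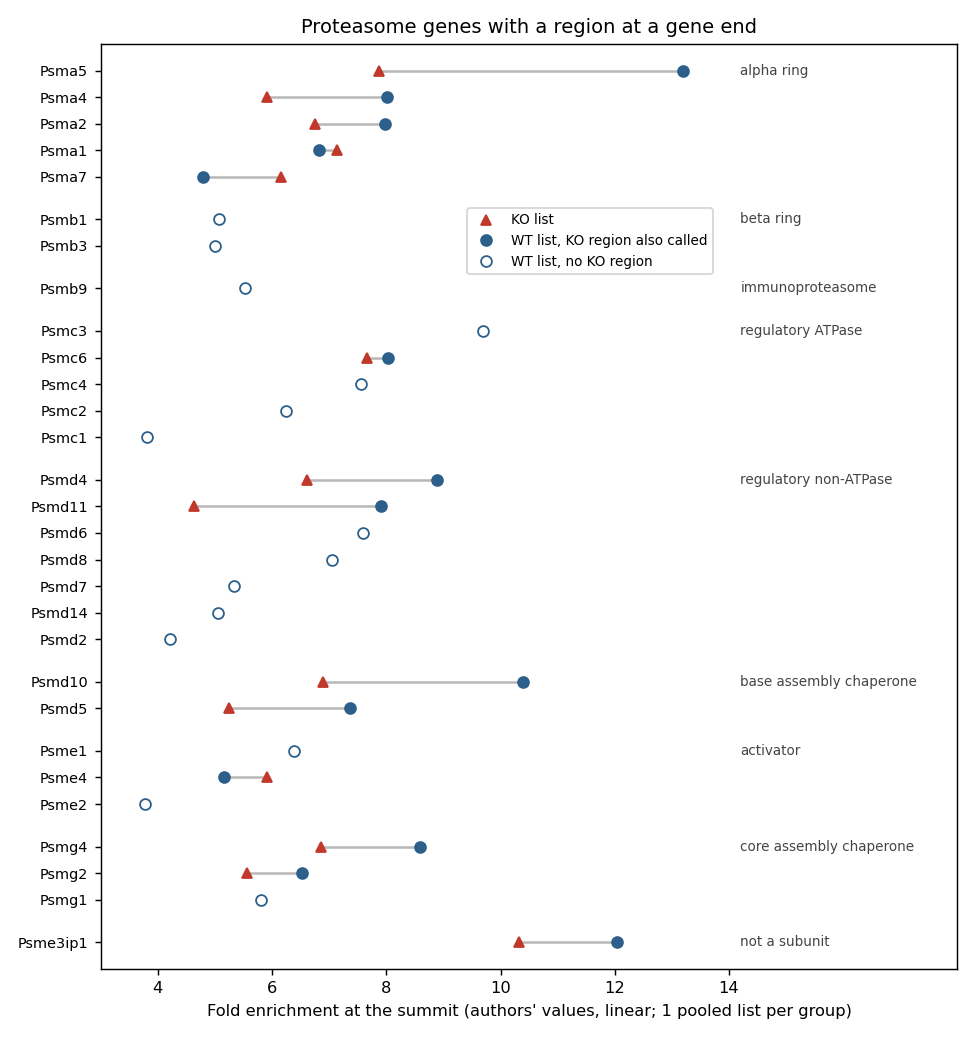
Fold enrichment at the summit (x axis, authors' values, 1 pooled list per group, so no error bars) of the 29 proteasome genes with a region at a gene end, by class. Triangles are the KO list and circles the WT list, filled where a KO region was also called. Psma5 has the widest gap (7.87 in KO and 13.2 in WT), and Psma1, Psma7 and Psme4 are the genes with the higher fold in KO. Folds are not scaled for the depth of the lists. Psmc6 has folds of 7.66 in KO and 8.03 in WT but a depth-scaled read ratio of 0.709.

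Summit reads in the 14 proteasome regions called in both lists summed to 196 in KO and 330 in WT. KO held 37.3% of them (33.1 to 41.6), an interval that ends below the 42.9% given by the depth of the lists. Over the 3786 gene-end regions in both lists KO held 38.5% (38.2 to 38.7), which lies within the interval of the proteasome genes. The median depth-scaled ratio was 0.762 for the proteasome genes and 0.840 for all gene-end regions. It was below 1 in 10 of 14 proteasome regions, and in 75.6% of all gene-end regions. Psma5 and Psmd11 were lower in KO by 1.5-fold or more, 2 of 14 where the share over all gene-end regions was 19.8%, and 0 of 14 were higher by as much, against 1.72%. Of the 14 single intervals, 13 held the depth share, Psma5 being the exception, and that of Psma5 held the share over all gene-end regions. By particle, KO held 37.4% in the core (30.5 to 44.7), 33.6% in the regulatory particle (25.2 to 42.8) and 39.2% in the other members (32.6 to 46.0). All these intervals cover counting error only, and reads made by PCR are not independent molecules.

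**Figure D3:**
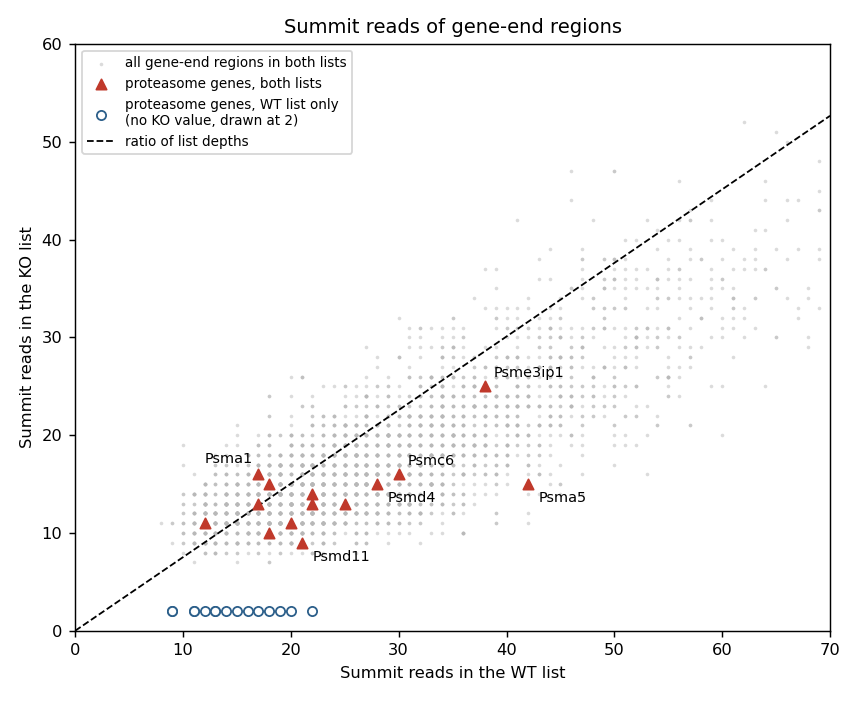
Summit reads in the KO list (y axis) against the WT list (x axis), 1 point per gene-end region in both lists (grey) with proteasome genes as triangles; regions above 70 WT reads lie outside the axes. Open circles along the bottom are the 15 proteasome genes without a KO region, placed by their WT reads. The dashed line is the ratio of list depths, 0.752, and 10 of 14 triangles lie below it.

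The share of WT regions with a KO counterpart was higher in classes of higher WT fold. Below a WT fold of 6, 2 of 11 proteasome genes had a KO region (18.2%, 2.28 to 51.8), against 25.5% of all protein-coding genes. From 6 to under 9 it was 9 of 14 (64.3%, 35.1 to 87.2), against 59.8%. At 9 and over it was 3 of 4 (75.0%, 19.4 to 99.4), against 94.1%, the gene without a KO region being Psmc3. Each of the 3 intervals held the share over all genes. Within the middle class, 3 of 3 core genes and 3 of 7 regulatory genes had a KO region. The median WT fold was 6.17 over the 8 core genes and 7.30 over the 12 regulatory genes with a WT region. Whether WT fold has a part in the difference between the particles was not tested.

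**Figure D4:**
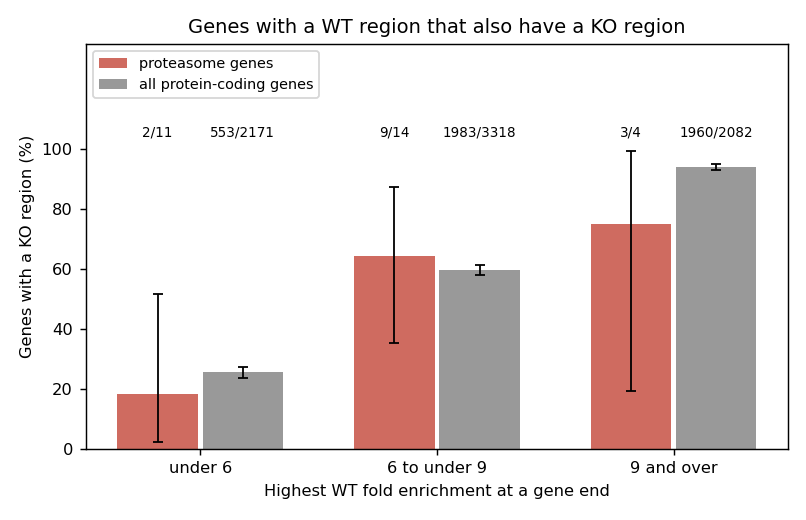
Share of genes with a WT region that also have a KO region (y axis, percent) by the highest WT fold at a gene end (x axis), for proteasome genes and for all protein-coding genes. Bars carry exact 95% intervals and the counts stand above them; the shares of the proteasome genes go from 18.2% to 75.0%, each interval holding the share over all genes.

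The 15 genes called in WT only had 9 to 22 reads at the WT summit, which at the KO depth would be 6.77 to 16.5 reads. The fewest reads at any called KO summit were 7, and 13 of the 15 genes would have had at least as many. That mark is the extreme of the KO list, whose median was 15 reads. Only Psmc3 (16.5) and Psmc4 (15.05) would have reached the median. Neither count was made over all genes called in WT only. With the WT background scaled as well, the scaled reads would have passed the weakest p-value of the KO list in 14 of the 15 genes, Psmc1 being the exception. Over all protein-coding genes called in WT only this share was 99.1%. The scaling takes no account of counting error, which at such numbers is large.

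In the 14 pairs the summits lay a median of 42 bp apart and at most 201 bp, at Psme4. The KO region was the narrower in 13 of 14 pairs, against 84.0% of all gene-end pairs, the exception being Psmg2 with 369 bp in KO and 299 bp in WT. The median width of proteasome regions was 262 bp (KO) and 329 bp (WT), set beside 305 bp (KO) and 364 bp (WT) over all gene-end regions. The summit lay within 200 bp of a listed start site in 13 of 13 KO regions and 23 of 26 WT regions that could be placed. This was not counted over all gene-end regions, and the regions were chosen by lying within 1000 bp of a gene end. Nearness to the start is thus not shown to be particular to proteasome genes. No gene-end region of a proteasome gene had a local background above 1.60 in KO or 2.96 in WT.

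Several members share a region with a neighbouring gene. Of the 29 with a WT region, 11 had one that also lay at an end of another protein-coding gene. Over all protein-coding genes with a WT region the share with such a shared region was 30.4%. The neighbours included Mrpl32 at Psma2, a mitochondrial ribosomal protein gene, Dnajc2 at Psmc2, Brwd1 at Psmg1, Cep76 at Psmg2, Pcgf2 at Psmb3 and Ss18l1 at Psma7. A KO region was called at 5 of these 11 (45.5%, 16.7 to 76.6) and at 9 of the 18 with a region of their own (50.0%, 26.0 to 74.0). Over all protein-coding genes these shares were 61.7% and 58.4%, each inside the interval of the proteasome genes. Such a region cannot be assigned to either gene from these lists.

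RefSeq promoters were found for 43 of the 51 members, 47 in all since some genes have several start sites. Missing were Psma8, Psmb1, Psmb2, Psmb7, Psmc3, Psmd3, Psmd7 and Psmg2. The 47 promoters had a median GC content of 57.3% and a median of 19 CG dinucleotides, against 56.3% and 13 over 21263 promoters of protein-coding genes. Here and for the motifs below, a promoter had a region only when one overlapped its sequence, a narrower rule than the gene-end window. These sets thus differ from the gene counts above. Psma3, without a gene-end region, had a promoter region in both lists. The promoters of Psmc1 and Psme2 and an inner one of Psmc2 had none, although these genes had WT gene-end regions. The 14 with a region in both lists had a median of 23.5 CG dinucleotides and the 11 with a WT region only had 22, while the 22 without a region had 13.5. Over all promoters these medians were 23, 22 and 6. The median without a region was thus higher in the member promoters than over all promoters.

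Motifs were searched as exact letters on both strands. They were the antioxidant response element core TGACNNNGC, the GC box GGGCGG, the CCAAT box, the ETS core CCGGAA, the nuclear respiratory factor 1 motif GCATGCGC, the cAMP response element TGACGTCA, the YY1 motif AAGATGGC and the gamma-activated site TTCNNNGAA. The ETS core was in 23 of 47 member promoters (48.9%) against 18.7% of all promoters and 35.2% of all promoters with a WT region. It was in 13 of 25 member promoters with a WT region (52.0%) and in 10 of 22 without any region (45.5%). Neither for the ETS core nor for the GC box was the share over all promoters without a region counted. The shares of member promoters without a region thus have nothing to be set against. The GC box was in 53.2% of member promoters and 46.2% of all, with 31.8% among member promoters without any region. Among those with a WT region it was 72.0%, beside 71.8% of all promoters with a WT region. CCAAT was in 34.0% of member promoters and 38.2% of all. The antioxidant response element core, the kind of site bound by the transcription factor encoded by Nfe2l1, which drives proteasome genes when the proteasome is impaired, was in 6 member promoters (12.8%, against 12.98% of all), those of Psmb5, Psmb6, Psmc6, Psmd9, Psmd12 and Psme4. Of these, Psmc6 and Psme4 had regions in both lists and the other 4 in neither. The remaining 4 motifs were in at most 3 member promoters each, and the cAMP response element in 0. Matches overlapped between motifs in Psmd9 (antioxidant response element core and GC box) and Psme4 (GC box and ETS core). A match is a description of letters and not of a bound site.

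**Figure D5:**
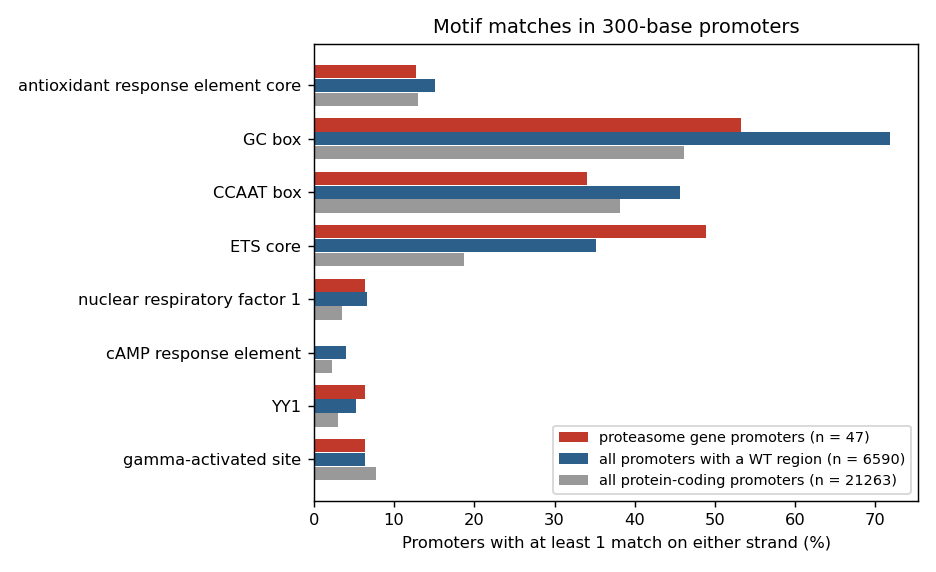
Share of promoters with at least 1 match (x axis, percent) for 8 motifs (rows), in proteasome gene promoters (n = 47), in all promoters overlapped by a WT region (n = 6590) and in all promoters of protein-coding genes (n = 21263). The ETS core is the motif with the widest gap, 48.9% in proteasome gene promoters, 35.2% in promoters with a WT region and 18.7% in all.

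Other genes of the pathway, listed apart from the symbol rule, were counted in the same way. Of 24 genes that serve the proteasome or carry ubiquitin to it, 14 had a KO region and 19 a WT region, and 14 of the 19 were in both lists (73.7%, 48.8 to 90.9). The shares over all protein-coding genes were 21.1% for KO, 34.6% for WT and 59.4% for WT regions with a KO region, the last inside that interval. Adrm1, a ubiquitin receptor of the regulatory particle with a symbol of its own, had a fold of 6.30 in KO and 10.3 in WT (16 and 31 reads). Uchl5, the deubiquitinase that Adrm1 binds, had 8.28 in KO and 12.2 in WT (23 and 53 reads). Nfe2l1 had 8.96 in KO and 10.3 in WT (23 and 40 reads). Sem1, a small lid subunit, and Pomp, which matures the core, were called in WT only (folds 6.91 and 6.97, 16 reads each). The polyubiquitin gene Ubb had a fold of 7.30 in KO and 7.49 in WT. Of 11 genes of antigen presentation, 7 had a KO region and 8 a WT region, with 6 in both. These 6 of 8 (75.0%, 34.9 to 96.8) also have an interval that holds 59.4%, and the shares of all genes with a region are as given for the 24 genes. Canx, a chaperone of MHC class I, had a fold of 7.45 in KO and 14.7 in WT (20 and 41 reads), and B2m, the light chain of MHC class I, had 7.75 in KO and 7.38 in WT (19 and 26 reads). Nlrc5, the activator of MHC class I and immunoproteasome genes, had a fold of 5.22 in KO and 10.5 in WT (11 and 25 reads). Erap1, a peptide trimming enzyme, had a KO region only (4.86, 13 reads), Tap1 and Irf1 a WT region only, and Tap2 and Tapbp none.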

How the data were processed

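The deposited files were 1 peak list and 1 summit list per group, made from both replicates per the series' design text. MACS2 2.1.4, deepTools 3.4.1, Picard, Bowtie2, GATK, Trim Galore and FastQC are listed with build mm10, per the submitters' processing notes. Whether cut positions were shifted, duplicates removed or problem regions masked is not given in the sources used here. The authors deposited for each region a score, a fold enrichment ratio at the summit and the -log10 of its p-value and q-value. The fold is used only to describe and group regions. It is not scaled for the depth of the lists, so KO and WT folds are not directly comparable. The summit lists repeated the deposited -log10 q values and positions on 15215 of 15215 WT lines and 7645 of 7645 KO lines.

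Summit reads were solved from the deposited fold and p, since in MACS2 the fold is pileup over background with 1 added to both, and p is a Poisson tail probability. They came out whole within 0.05 on 100% of lines. The most frequent background was taken as relative depth, and library totals were not used here. The solver and the overlap were tested on simulated data. Genes came from RefSeq GRCm38.p6, and start sites and strands from its promoter table, which also supplied the sequences. Motif matches were exact. With 1 list per group there was no test between them. Shares carry exact Clopper-Pearson and reads exact Poisson 95% intervals. The window, the -log10 q threshold, the overlap, the list length, the gene ends used and regions shared between genes were varied. The members, the lists of genes and the naming rule were chosen with earlier results of these data known. That rule for named genes took Psmb5 to Psmb11, activators and inhibitor, genes called in 1 list only, those with the highest WT fold, and the extremes of the read ratio. All members are accounted for. Values of members outside the rule, regions away from gene ends and the projection to the KO depth were added after their values were seen. Software was matplotlib 3.10.9, scipy 1.17.1, pandas 2.3.3, numpy 2.4.6 and Python 3.11.15.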

Additional observations from a re-analysis of the deposited data

How the results depend on the processing

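No paired analysis was possible because each group has 1 list made from both replicates, and for the same reason no replicate could be left out. With regions of -log10 q of at least 10 in both lists, 1 of the 51 genes had a KO region and 14 a WT region. The gene with a KO region was Psme3ip1, which encodes no subunit. The kept share was 7.14% (0.181 to 33.9) where all protein-coding genes had 41.5%, above that interval. The kept share was then 0% in the core (0 of 3, 0 to 70.8) and 0% in the regulatory particle (0 of 7, 0 to 41.0). The 41.5% lay inside the interval of the core and above that of the regulatory particle. With the WT list limited to the length of the KO list, 16 genes had a WT region and 2 a KO region without a WT region. The kept share was 75.0% (12 of 16), against 77.8% of all genes, 100% in the core (4 of 4) and 42.9% in the regulatory particle (3 of 7). Without genes that share a region with a neighbour, 9 had a KO region and 18 a WT region. Each setting keeps fewer regions or genes by construction, so the lower counts are no finding. The cause of the other shifts, among them those of the kept share, was not tested. Under all other settings the counts stayed within 1.5 times and the shares within their intervals, among them a -log10 q of at least 5, narrower and wider windows, start sites only and both overlap rules, as did the KO share of reads under its 4 settings. At a median of 13.5 KO and 17.5 WT reads at the summit of a proteasome region, a missing KO region does not show a closed site.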
